A study of Mus musculus with 16 samples.

Results

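RNA of 9 fatty acid desaturases and elongases was followed in mouse liver under a low-fat diet (LFD), a high-fat diet (HFD) and 2 ways of blocking ketohexokinase (KHK), the first enzyme of fructose breakdown. The 9 genes were taken by symbol from the deposited table of 50559 gene symbols. They are the desaturases Fads1, Fads2, Fads3, Fads6 and Scd2 and the elongases Elovl1, Elovl2, Elovl3 and Elovl5. All 9 had enough counts to be tested among 18335 genes. Scd1 and Elovl6, the family members best known for de novo lipogenesis, are given beside them for comparison.

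Each of the 4 groups held 4 liver libraries from male C57BL/6J mice that were 6 weeks old at the start of the diet and stayed on it for 10 weeks. The study names the high-fat diet a 60% HFD and does not state the basis of that percentage. For the last 4 weeks, the LFD group (named chow in the labels) and the HFD group received a control siRNA to luciferase (10 mg/kg, every 2 weeks). Both also had gavage with methylcellulose 2 times a day. The HFD + siRNA group received, in place of the control, a GalNAc-conjugated siRNA against total KHK at 20 mg/kg, which is taken up by hepatocytes, together with methylcellulose. Mice of HFD + Inhib had the control siRNA with the small-molecule KHK inhibitor PF-06835919 (15 mg/kg by the same gavage), which reaches the whole body. Thus the 2 treatments differ in molecule, route and reach, and each was given at 1 dose. The study's methods describe saline or insulin given to mice shortly before tissue collection, and which mouse of these libraries received which was not known here. Nothing in the labels says whether replicates came from separate cages or days, so p-values measure the spread between these libraries.

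Mammals obtain linoleic and alpha-linolenic acid from food and lengthen and desaturate them in the endoplasmic reticulum of the hepatocyte. FADS2 opens the pathway as the delta-6 desaturase, ELOVL5 lengthens its products, FADS1 acts as the delta-5 desaturase, and ELOVL2 carries the chains on toward docosahexaenoic acid. Desaturases take electrons from cytochrome b5, and each elongation turn needs a reductase, a dehydratase and a second reductase besides the ELOVL enzyme. In liver, many of these genes are known targets of SREBP-1c and of the fatty acid receptor PPARα.

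Fads3, Fads2 and Fads1 lie next to each other on chromosome 19, in that order of coding genes in RefSeq. Scd2 lies on the same chromosome between Scd3 and Scd4. The promoters of 6 of the 9 members were found in RefSeq (build GRCm38.p6), as 250 bases before each annotated start. Fads1, Elovl3 and Scd2 were not among them. The 3 sequences below are shown for the first enzyme of the pathway, the elongase that follows it and a neighbour in the desaturase cluster, each called in at least 4 of the 6 comparisons: Elovl5 on chromosome 9 (chr9:77917115-77917364, plus strand), Fads2 (chr19:10101504-10101753, minus strand) and Fads3 (chr19:10041298-10041547, plus strand). Each runs 5′ to 3′ toward the gene, and capitals mark matches on either strand to the E-box CACGTG, the CCAAT box CCAAT and the GC box GGGCGG.
Elovl5: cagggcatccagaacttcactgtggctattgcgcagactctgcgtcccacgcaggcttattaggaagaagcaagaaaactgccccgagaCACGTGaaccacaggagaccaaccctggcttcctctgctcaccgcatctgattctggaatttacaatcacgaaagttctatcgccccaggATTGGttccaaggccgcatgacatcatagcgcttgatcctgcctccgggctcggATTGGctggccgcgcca
Fads2: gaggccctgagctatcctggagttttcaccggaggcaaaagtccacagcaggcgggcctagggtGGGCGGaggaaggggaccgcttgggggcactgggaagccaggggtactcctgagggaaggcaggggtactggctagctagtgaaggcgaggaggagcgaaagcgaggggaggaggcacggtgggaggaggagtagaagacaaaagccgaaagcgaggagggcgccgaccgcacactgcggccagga
Fads3: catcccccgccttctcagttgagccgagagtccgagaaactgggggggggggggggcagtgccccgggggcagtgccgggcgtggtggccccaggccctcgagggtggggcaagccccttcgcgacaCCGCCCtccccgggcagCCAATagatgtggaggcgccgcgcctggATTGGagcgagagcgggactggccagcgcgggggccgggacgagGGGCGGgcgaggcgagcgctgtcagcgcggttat
The first base of the E-box of Elovl5 lay 161 bases before the start, and its CCAAT boxes began 71 and 17 bases before it. Fads2 held neither box and 1 GC box, at 186 bases. CCAAT boxes of Fads3 began at 106 and 78 bases, and its GC boxes at 123 and 34 bases. Of the 6 members with a promoter, 1 held the E-box, 3 the CCAAT box (Elovl1, Elovl5 and Fads3) and 5 the GC box, all but Elovl5. In Elovl1, a CCAAT box and a GC box shared 2 bases. No member held the sterol regulatory element TCACNCCAC, the DR1 element of PPARα or the DR4 element of LXR in this window. Over 32851 mouse promoters of the same length, the E-box was found in 6.02%, the CCAAT box in 33.8%, the GC box in 32.7%, the sterol element in 1.05% and the DR1 and DR4 elements in 0.0335% and 0.0152%. Counted by gene, as the members are, the E-box was found in 6.86%, the CCAAT box in 37.5% and the GC box in 35.4% of 27025 genes. These are matches of letters, and binding was not measured.

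Levels are given as CPM, expected counts scaled to a common library total after TMM normalization, which sets aside differences in library composition. The libraries held 24317111 to 35820234 expected counts (median 29570114). Between genes, levels are compared only per kilobase of the longest annotated transcript. On that scale, the mean over the 16 libraries was highest for Fads2 (300 CPM per kb) and Elovl5 (250), followed by Fads1 (164), Elovl2 (163) and Elovl3 (118). Fads6 (29.8), Elovl1 (17.3) and Fads3 (7.82) were lower, and Scd2 came last at 1.97 CPM per kb. The order changed with the group. In LFD, Elovl3 had the highest mean of the 9 at 175 CPM per kb, above Elovl5 (139), Fads2 (126), Fads1 (124) and Elovl2 (123), and in HFD it was at 38.5 CPM per kb.

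Khk itself was read first, as the target of the siRNA. It stood at 214, 233, 349 and 269 CPM in the 4 LFD libraries and at 251, 322, 233 and 251 CPM in HFD. In HFD + siRNA it was at 11.8, 9.14, 18.1 and 11.5 CPM, all far below every other library. In HFD + Inhib it was at 112, 152, 94.6 and 120 CPM, between the siRNA and the control libraries without overlap. Against HFD, Khk fell by 4.38 on the log2 scale with siRNA (standard error 0.23, edgeR adjusted p = 1.9e-08) and by 1.14 with the inhibitor (standard error 0.2, edgeR adjusted p = 0.00075). No library of the siRNA group went against its label.

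On the HFD, RNA of Fads2, Elovl5 and Elovl2 of the polyunsaturated pathway rose while that of Elovl3 fell. By edgeR's quasi-likelihood test at an adjusted p under 0.05, 4 of the 9 members were higher in HFD than in LFD (Fads2, Elovl5, Fads3 and Elovl2) and 1 was lower (Elovl3). Among all 18335 genes tested, 18.4% passed in this comparison, 9.58% higher and 8.8% lower. The groups did not overlap for these 5 members, and 20.4% of all genes were separated in this way. The median log2 fold change of the 9 members was 0.17, against -0.011 over all genes.

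Fads2, the delta-6 desaturase, was at 592, 304, 342 and 350 CPM in LFD and at 718, 1030, 922 and 910 CPM in HFD. The highest LFD library, replicate 1, stayed below the lowest HFD library. The rise was 1.17 on the log2 scale, or 2.26-fold (standard error 0.18, edgeR adjusted p = 0.00055). Its neighbour Fads1, the delta-5 desaturase, was at 567, 390, 386 and 377 CPM in LFD and at 389, 517, 515 and 512 CPM in HFD. In each group, replicate 1 stood apart from the other 3 libraries, toward the other group. Its log2 fold change of 0.17 (95% interval -0.1 to 0.44, edgeR adjusted p = 0.39) did not pass, and without LFD replicate 1 it was 0.34 with an adjusted p of 0.05, just inside the threshold. The ratio of Fads2 to Fads1 counts within a library was 0.909 ± 0.109 in LFD (SD, n = 4, from 0.78 to 1.04) and 1.85 ± 0.102 in HFD (from 1.78 to 2). In this ratio no LFD library came near an HFD library.

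Fads3, whose product desaturates sphingoid bases, was low throughout, at 18.7, 21.2, 14.1 and 15.5 CPM in LFD and 22, 29.3, 32.9 and 30.3 CPM in HFD. Its log2 fold change was 0.72 (standard error 0.19, edgeR adjusted p = 0.016), and it no longer passed without LFD replicate 3 (adjusted p = 0.056) or without HFD replicate 3 (adjusted p = 0.054). Fads6, a desaturase-like protein of unsettled substrate, had 156 and 151 CPM on average in LFD and HFD, with a log2 fold change of -0.044 (95% interval -0.29 to 0.2, edgeR adjusted p = 0.83).

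**Figure D1:**
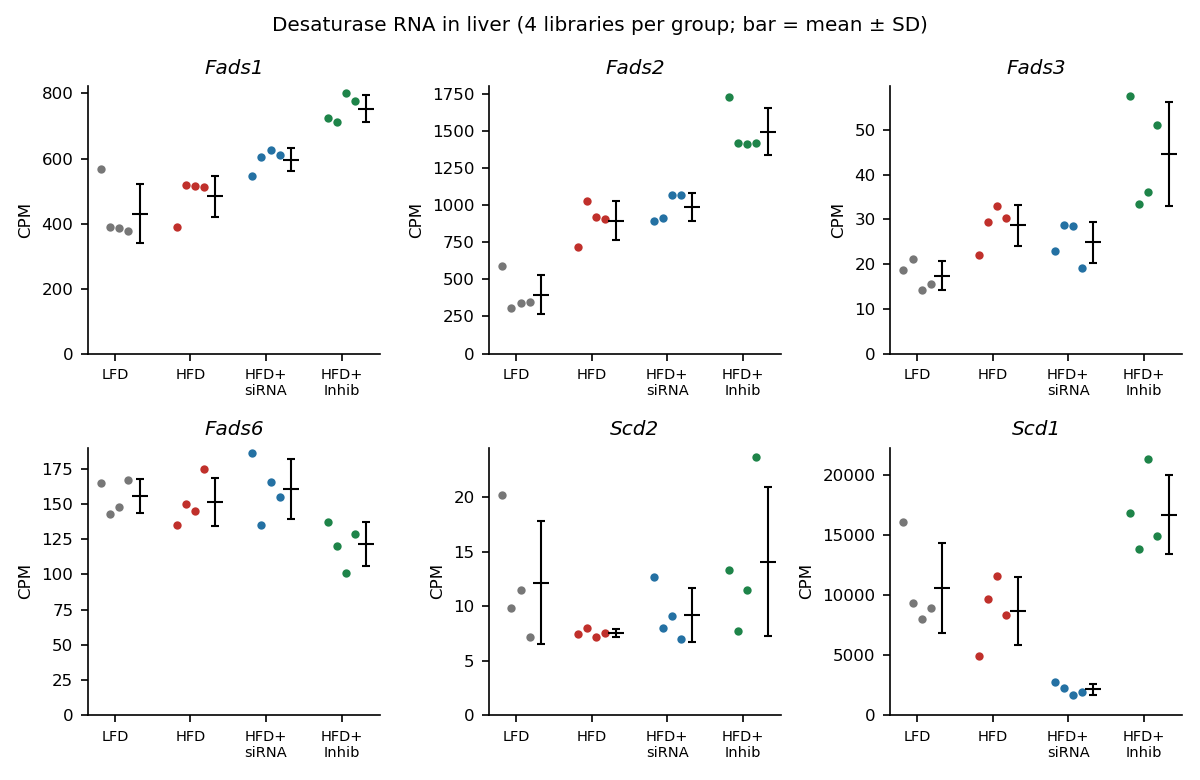
RNA level in CPM (linear axis from 0) of the 5 desaturases and of Scd1 in each library of the 4 groups, with replicates 1 to 4 from left to right and the mean ± SD beside them. Fads2 was higher in every HFD library than in LFD, and the HFD + Inhib libraries were the highest for Fads1, Fads2 and Fads3; Scd1 was lowest with siRNA.

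Elovl5, which lengthens the products of FADS2, was at 423, 386, 337 and 397 CPM in LFD and at 518, 962, 857 and 640 CPM in HFD. The HFD libraries were all higher and spread more. The rise was 0.95 on the log2 scale, or 1.93-fold (standard error 0.17, edgeR adjusted p = 0.0019). Elovl2, the elongase of the longest polyunsaturated chains, was at 588, 527, 384 and 393 CPM in LFD and at 696, 729, 823 and 760 CPM in HFD, again without overlap. Its rise was 0.67 on the log2 scale (standard error 0.13, edgeR adjusted p = 0.0034).

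Elovl3 makes very long saturated and monounsaturated chains and is known as an androgen- and clock-dependent gene of male mouse liver. In LFD it was at 341, 349, 389 and 240 CPM, and in HFD at 73.1, 145, 49 and 23 CPM. Every HFD library was below every LFD library, although the HFD libraries differed among themselves by more than those of any other member in that group, with a standard deviation of 72.3% of the mean. It fell by 2.18 on the log2 scale (standard error 0.48, edgeR adjusted p = 0.0061). Elovl1, an elongase of saturated very long chains, had 30 and 27.2 CPM on average in LFD and HFD, with a log2 fold change of -0.14 (95% interval -0.37 to 0.09, edgeR adjusted p = 0.39).

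Male-biased and clock genes are given beside Elovl3. Of 14 male-biased liver genes, 10 were lower in HFD than in LFD and 0 higher by the same edgeR test, among them Ugt2b38 (log2 fold change -3.83), Serpina1e (-2.84) and the steroid dehydrogenase Hsd3b5 (-2.51). Ugt2b38 was low in HFD, at 0.114 to 0.762 CPM. The summed level of the 14 genes was 10700 to 19700 CPM in LFD and 3490 to 7470 CPM in HFD. Serpina1e alone made up 27.8% to 55.4% of this sum in LFD and 9.03% to 25.5% in HFD. Of 18 clock genes, 3 were higher (Per3 1.85, Per2 1.14 and Hlf 0.47 on the log2 scale) and 3 lower (Npas2 -1.8, Nfil3 -1.21 and Cry1 -1.07). Of all genes, 18.4% were called in HFD versus LFD. The collection time of each mouse was not known here, and the part of either list in the change of Elovl3 was not tested.

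**Figure D2:**
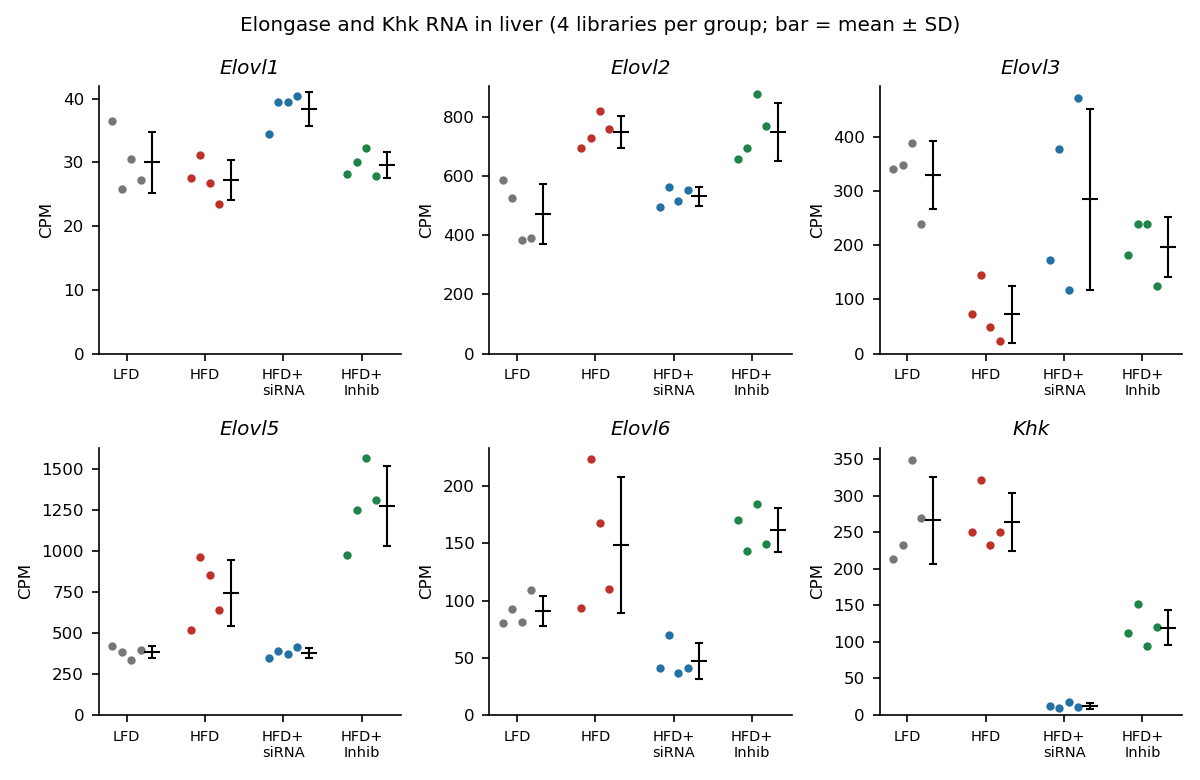
RNA level in CPM (linear axis from 0) of the 4 elongases, of Elovl6 and of Khk in each library, with replicates 1 to 4 from left to right and the mean ± SD beside them. Elovl5 with siRNA lay at the LFD level and with the inhibitor above every other group, Elovl3 was lowest in HFD, and Khk was lowest with siRNA.

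With siRNA against KHK, the 2 elongases of the polyunsaturated pathway fell from their HFD level while Fads2 and Fads3 gave no call. The call of Elovl5 held in all 17 alternatives, and that of Elovl2 was lost in 7 of 17. In HFD + siRNA versus HFD, 2 of the 9 members were higher (Elovl3 and Elovl1) and 2 lower (Elovl5 and Elovl2) by edgeR at an adjusted p under 0.05. The background was 11.7% of all genes, 5.2% higher and 6.55% lower, and 20.6% of all genes had groups without overlap against 4 of the 9 members. The median log2 fold change of the members was 0.14, against 0.022 over all genes.

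Elovl5 was at 345, 392, 370 and 413 CPM in HFD + siRNA, all 4 below the lowest HFD library at 518 CPM. It fell by 0.97 on the log2 scale (standard error 0.17, edgeR adjusted p = 0.0026), and this call held in all 17 alternatives. Against LFD the difference was -0.022 on the log2 scale, with a 95% interval of -0.38 to 0.34 (edgeR adjusted p = 0.96). Elovl2 was at 495, 565, 516 and 555 CPM, below every HFD library and within the range of LFD. It fell by 0.5 on the log2 scale (standard error 0.13, edgeR adjusted p = 0.024). With transcript GC content and length corrected for (the GC correction), this was -0.35 with an adjusted p of 0.093, and without HFD replicate 3, HFD replicate 4, HFD + siRNA replicate 1 or HFD + siRNA replicate 3 the adjusted p was 0.08, 0.051, 0.061 and 0.057.

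Fads2 was at 895, 916, 1070 and 1070 CPM in HFD + siRNA, inside and above the HFD range. The log2 fold change against HFD was 0.14 (95% interval -0.23 to 0.51, edgeR adjusted p = 0.65), and against LFD it was 1.32 (standard error 0.18, edgeR adjusted p = 0.00032). Fads1 was at 546, 604, 627 and 610 CPM, just above every HFD library. Its log2 fold change of 0.3 against HFD (95% interval 0.032 to 0.58) had an adjusted p of 0.14 in edgeR and was not called. Fads3, at 23, 28.8, 28.4 and 19.1 CPM, overlapped HFD, with a log2 fold change of -0.21 (95% interval -0.6 to 0.19, edgeR adjusted p = 0.52). The ratio of Fads2 to Fads1 was 1.66 ± 0.105 (SD, n = 4, from 1.52 to 1.76), above all LFD libraries and below all HFD libraries.

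Elovl3 was at 172, 378, 118 and 472 CPM in HFD + siRNA. Replicates 2 and 4 reached or passed the LFD level, and replicate 3 lay within the HFD range. The log2 fold change against HFD was 1.97 (standard error 0.47, edgeR adjusted p = 0.014), and it did not pass without HFD + siRNA replicate 4 (1.6, adjusted p = 0.056) or HFD replicate 3 (1.83, adjusted p = 0.054). Beside Elovl3, 2 of the 14 male-biased genes rose with siRNA (Ugt2b38 3.05 and Gstp1 1.05 on the log2 scale) and 0 fell. This is near the 11.7% of all genes called in this comparison. Ugt2b38 was low and its groups overlapped, at 0.114 to 0.762 CPM in HFD and 0.663 to 10.5 CPM (median 1.87) with siRNA. Of the 14 genes, 8 had an unadjusted p under 0.05. Their median log2 fold change was 0.61, against 0.022 over all genes, and their summed level was 6700 to 11800 CPM against 3490 to 7470 CPM in HFD. Serpina1e alone made up 27% to 49.5% of this sum with siRNA and 9.03% to 25.5% in HFD. The part of this list in the change of Elovl3 was not tested. Elovl1 was at 34.4, 39.4, 39.4 and 40.4 CPM, above all HFD libraries. Its rise of 0.5 on the log2 scale (standard error 0.11, edgeR adjusted p = 0.0088) was about 1.41-fold. With the GC correction it was 0.33 (adjusted p = 0.045), and with that correction and a replicate block together it was 0.34 and no longer called (adjusted p = 0.06).

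The lipogenic relatives moved further than any of the 9 members that fell. Scd1, the stearoyl-CoA desaturase, averaged 2150 CPM with siRNA and 8630 CPM without, and its log2 fold change was -2.01 (standard error 0.27, edgeR adjusted p = 0.00043). Elovl6, the elongase of palmitate, averaged 47.2 and 149 CPM, and its log2 fold change was -1.66 (standard error 0.25, edgeR adjusted p = 0.00098). Of 15 tested SREBP1 and LXR targets, both included, 9 fell and 1 rose (Mid1ip1) in this comparison, with Pnpla3 at -2.77 and Acacb at -1.7 on the log2 scale. Over all genes, 6.55% fell and 5.2% rose. Pnpla3 was low, with 9 to 12 counts per library with siRNA and 17 to 199 in HFD. Insig1, the sterol-sensing partner of SREBP processing, fell by 1.08 on the log2 scale (standard error 0.17, edgeR adjusted p = 0.0015), the 1 call of edgeR among 11 regulators, where DESeq2 called 2 and 4 had an unadjusted p under 0.05. Srebf1 itself had a log2 fold change of -0.033 (edgeR adjusted p = 0.96).

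**Figure D3:**
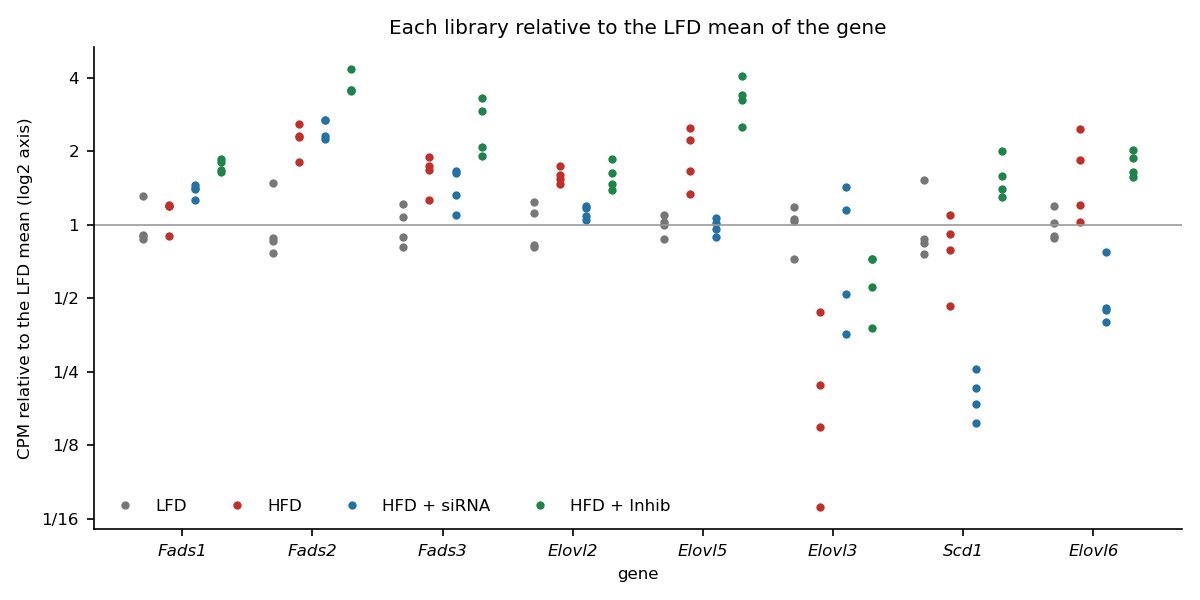
CPM of each library divided by the LFD mean of the same gene, on a log2 axis, for 6 members and for Scd1 and Elovl6, with 1 point per library and colour for the group. With siRNA, Elovl5 returned to the LFD line while Fads2 stayed above it, and Scd1 and Elovl6 lay below it; with the inhibitor, Fads2 and Elovl5 were highest.

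With the inhibitor, the 3 clustered desaturases and Elovl5 rose above their HFD level. In HFD + Inhib versus HFD, 5 of the 9 members were higher (Fads1, Fads2, Fads3, Elovl5 and Elovl3) and 0 lower by edgeR at an adjusted p under 0.05. The unadjusted p of Scd2 and Fads6 was also under 0.05, with Fads6 downward. The background was 18.2% of all genes, 9.8% higher and 8.42% lower, and 23.3% of all genes had groups without overlap against 4 of the 9 members. The median log2 fold change of the members was 0.64, against -0.0044 over all genes.

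Fads2 was at 1730, 1420, 1410 and 1420 CPM in HFD + Inhib, all above the highest HFD library at 1030 CPM. The rise over HFD was 0.74 on the log2 scale, or 1.67-fold (standard error 0.18, edgeR adjusted p = 0.0076). Fads1 was at 725, 711, 800 and 778 CPM, and no HFD library passed 517 CPM. Its rise was 0.64 on the log2 scale (standard error 0.13, edgeR adjusted p = 0.0024). The ratio of the pair, 1.99 ± 0.28 (SD, n = 4, from 1.76 to 2.38), covered that of HFD. Fads3 was at 57.6, 33.3, 36.2 and 51 CPM against 22 to 32.9 CPM in HFD. Its rise of 0.64 (standard error 0.19, edgeR adjusted p = 0.025) did not pass without HFD + Inhib replicate 1 (0.49, adjusted p = 0.094), HFD + Inhib replicate 4 (adjusted p = 0.075), HFD replicate 1 (adjusted p = 0.087) or HFD replicate 2 (adjusted p = 0.052).

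Elovl5 was at 973, 1250, 1570 and 1310 CPM in HFD + Inhib, with the lowest library just above the highest HFD library at 962 CPM. It rose by 0.78 on the log2 scale, or 1.71-fold (standard error 0.17, edgeR adjusted p = 0.0045). Elovl2 gave no call. At 658, 696, 881 and 771 CPM it covered the HFD range, with a log2 fold change of -0.0014 (95% interval -0.28 to 0.28, edgeR adjusted p = 1).

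Elovl3 was at 183, 240, 240 and 125 CPM with the inhibitor, and the lowest of these overlapped the highest HFD library at 145 CPM. Its log2 fold change was 1.44 (standard error 0.47, edgeR adjusted p = 0.042). The call was lost in 9 of 17 alternatives, among them the GC correction (adjusted p = 0.053), the fit of the compared groups alone (adjusted p = 0.051) and 6 fits without 1 library, with adjusted p from 0.065 without HFD + Inhib replicate 1 to 0.1 without HFD replicate 3. The others were HFD + Inhib replicates 2 (0.093) and 3 (0.091) and HFD replicates 1 (0.089) and 4 (0.095). Beside Elovl3, 2 of the 14 male-biased genes rose (Cyp4a12b 4.68 and Cyp4a12a 3.29 on the log2 scale) and 3 fell (Hsd3b5 -3.65, Slco1a1 -1.85 and Gstp1 -1.22), with a summed level of 3380 to 6690 CPM. Of all genes, 18.2% were called in this comparison. No clock gene was called in either treatment against HFD by edgeR or DESeq2, with 3 of 18 at an unadjusted p under 0.05 for the siRNA and 2 for the inhibitor.

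Fads6 and Elovl1 gave no call with the inhibitor against HFD. Fads6 was at 137, 120, 101 and 129 CPM with the inhibitor and 135 to 175 CPM in HFD, with a log2 fold change of -0.31 (95% interval -0.56 to -0.069, edgeR adjusted p = 0.071). Elovl1 was at 27.9 to 32.2 CPM, with a log2 fold change of 0.12 (95% interval -0.11 to 0.35, edgeR adjusted p = 0.5).

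Scd2, the stearoyl-CoA desaturase known mainly from brain and early life, was the least certain member. It was at 20.2, 9.78, 11.5 and 7.15 CPM in LFD, 7.46, 8.01, 7.13 and 7.51 CPM in HFD, 12.7, 8.01, 9.1 and 6.97 CPM in HFD + siRNA and 13.3, 7.73, 11.5 and 23.7 CPM in HFD + Inhib. The HFD libraries were nearly equal and the other groups were each led by 1 library. No comparison was called in edgeR. With the inhibitor the log2 fold change against HFD was 0.9 (95% interval 0.23 to 1.57, adjusted p = 0.058), and DESeq2 gave 0.91 with an adjusted p of 0.022. It also passed without a filter (adjusted p = 0.045), with only the compared groups (0.046) and without HFD + Inhib replicate 2 (1.1, adjusted p = 0.023), 4 of 17 alternatives in all. Without HFD + Inhib replicate 4, its highest library, the value was 0.53 (adjusted p = 0.25). Against HFD + siRNA, Scd2 with the inhibitor was at 0.61 on the log2 scale. It passed there in 1 of 17 alternatives and ran from 0.24 to 0.83 without 1 library. Of its 50-base words, 3.97% are found in other genes and 2.66% in Scd1, and its counts came to 0.0539% to 0.558% of the Scd1 counts. Counts that were not whole were found in all 16 libraries for Scd2 and also for Elovl3, which shares 0 such words with other genes, in 9 libraries for Fads2 and in 7 for Fads3. How far reads of Scd1 reached the Scd2 count was not tested.

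The difference between the treatments was tested directly. In HFD + Inhib versus HFD + siRNA, 4 of the 9 members were higher with the inhibitor (Elovl5, Fads3, Fads2 and Elovl2) and 2 lower (Fads6 and Elovl1), where 33.8% of all genes passed, 17.3% higher and 16.6% lower. Groups did not overlap for 6 of the 9 members and for 32.4% of all genes. The largest of these was Elovl5, whose libraries at 973 to 1570 CPM with the inhibitor and 345 to 413 CPM with siRNA differed by 1.75 on the log2 scale, or 3.36-fold (standard error 0.17, edgeR adjusted p = 2.5e-06). Fads3 differed by 0.85 (edgeR adjusted p = 0.0027), Fads2 by 0.6 (adjusted p = 0.015) and Elovl2 by 0.5 (adjusted p = 0.0091). With the GC correction, Elovl2 was no longer called (0.23, adjusted p = 0.18).

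Fads1, higher by 0.34 with the inhibitor and without overlap, missed the threshold with an adjusted p of 0.053 in edgeR and passed it in DESeq2 (0.029) and after the GC correction (0.0066). Fads6 fell by 0.4 on the log2 scale with the inhibitor relative to siRNA (edgeR adjusted p = 0.014) and Elovl1 fell by 0.38 (edgeR adjusted p = 0.014). Both lost the call with the GC correction, at adjusted p of 0.065 and 0.13. Fads6 also lost it without HFD + Inhib replicate 3 (0.05, just past the threshold) or HFD + siRNA replicate 1 (0.063), and Elovl1 without HFD + siRNA replicate 4 (0.052). Elovl3 was not called (-0.53, 95% interval -1.5 to 0.43, edgeR adjusted p = 0.39). Scd1 and Elovl6 were higher with the inhibitor by 2.96 and 1.78 on the log2 scale (edgeR adjusted p = 1.4e-06 and 6e-05).

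**Figure D4:**
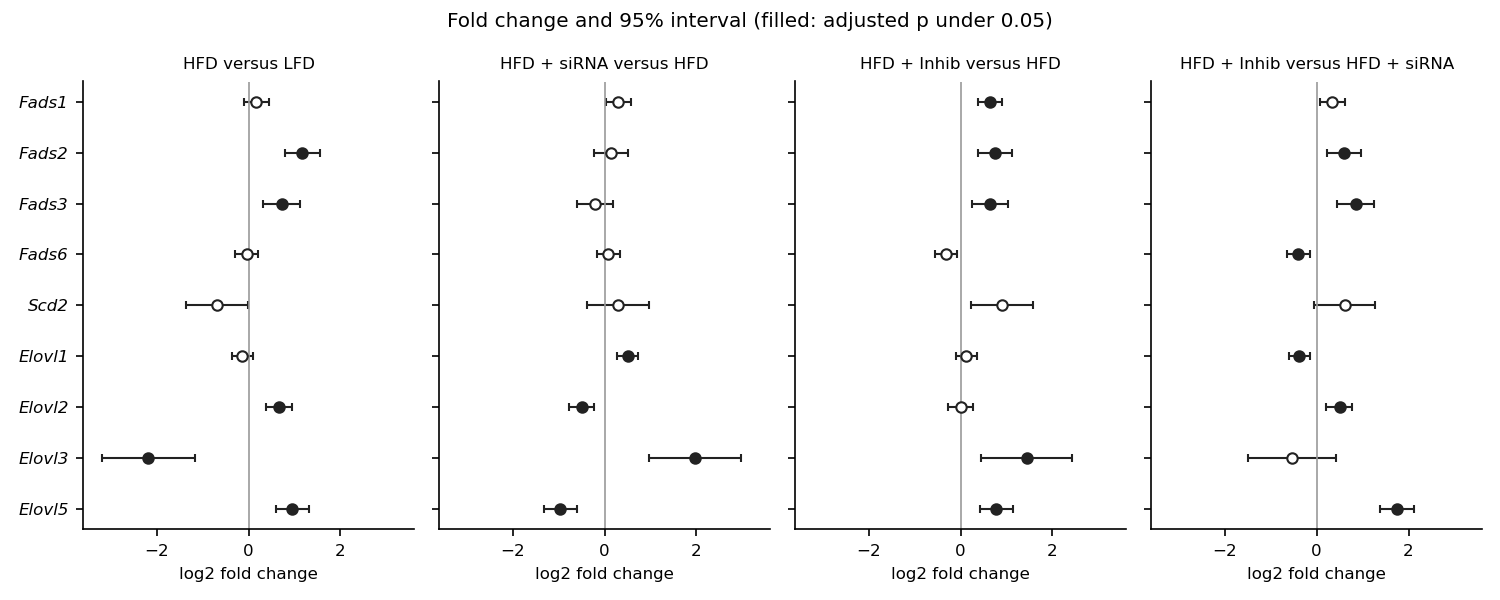
Log2 fold change (points) and 95% interval (bars) of the 9 members in 4 comparisons, with filled points where the edgeR adjusted p was under 0.05. Elovl5 was called in each of the 4, rising in HFD, falling with siRNA and rising with the inhibitor, while Fads2 lay near 0 only with siRNA.

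Against LFD, the treated groups took different places. In HFD + siRNA versus LFD, edgeR called 2 of the 9 members, Fads2 and Fads1, both higher, with a background of 8.63% (4.75% higher and 3.88% lower). Groups did not overlap for 1 of them and for 12.8% of all genes. Fads1 was at a log2 fold change of 0.47 (edgeR adjusted p = 0.032) with overlap between the groups, and this call was lost in 10 of 17 alternatives, with an adjusted p of up to 0.11 without LFD replicate 3. It was also lost without LFD replicates 2 (0.099) and 4 (0.096) and without HFD + siRNA replicates 1 (0.051), 2 (0.072), 3 (0.094) and 4 (0.088), each of which leaves Fads2 as the 1 member called. The call of Fads2 held in all 17 alternatives. Elovl1, with a log2 fold change of 0.36, missed the threshold in edgeR (adjusted p = 0.052) and passed it in 4 of 17 alternatives, with DESeq2 (adjusted p = 0.037), the GC correction (0.039), at least 10 counts in every library (0.044) and without LFD replicate 1 (0.015).

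In HFD + Inhib versus LFD, 5 were higher and 1 lower, with a background of 36.9% (18.8% higher and 18.2% lower). Groups did not overlap for 6 of the 9 members and for 31.2% of all genes. Fads2 was higher by 1.91 on the log2 scale, or 3.77-fold (standard error 0.18, edgeR adjusted p = 1.1e-06), and Elovl5 by 1.72, or 3.3-fold (standard error 0.17, edgeR adjusted p = 2.3e-06). Fads3 (1.36), Fads1 (0.81) and Elovl2 (0.67) were the other members that rose. Fads6 fell by 0.36 (edgeR adjusted p = 0.023), a call lost with the GC correction (adjusted p = 0.15) and without HFD + Inhib replicate 3 (0.079), LFD replicate 1 (0.06) or LFD replicate 4 (0.058). Elovl3 was at -0.74 (edgeR adjusted p = 0.22), a call with only the compared groups (-0.75, adjusted p = 0.024). The comparisons above share control libraries and are therefore not independent of each other.

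The order of the 4 groups differed by member. Fads2 was highest with the inhibitor, then with siRNA and in HFD, without a call between these, and lowest in LFD. For Elovl5 the order was inhibitor, HFD, and then LFD and siRNA, without a call between these. For Elovl2, HFD and inhibitor formed the upper pair and siRNA and LFD the lower pair, without a called difference inside either pair. For Elovl3, no call separated neighbours in the order LFD, siRNA and inhibitor, and HFD came last. Elovl1 was highest with siRNA and Fads6 lowest with the inhibitor, but edgeR called no neighbours in either order, with the pair of siRNA and LFD for Elovl1 close to the threshold as given above. For Fads1 the order was inhibitor, siRNA, HFD and LFD, for Fads3 inhibitor, HFD, siRNA and LFD, and for Scd2 inhibitor, LFD, siRNA and HFD. Of these neighbours, edgeR called 1 pair, Fads3 with the inhibitor and in HFD, and Fads1 with the inhibitor and with siRNA passed in 6 of 17 alternatives.

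The genes most like a member in log2 CPM over the 16 libraries, taken from those whose average log2 CPM reached 3, are named as a description, since all share the same groups and libraries. Elovl5 was closest to Gpam (Pearson r = 0.968), the first acyltransferase of glycerolipid synthesis, followed by Secisbp2l (0.958) and Epm2aip1 (0.957). Fads2 was closest to Fitm1 (0.943), a protein of lipid droplet formation, then Anxa2 (0.924) and Lyplal1 (0.921). Fads1 was closest to Riox2 (0.914), Fads3 to Osbpl3 (0.918), Elovl2 to Tceal8 (0.899), Elovl3 to Maged1 (0.896), Elovl1 to Flywch1 (0.915) and Fads6 to Dgat2 (0.887), which completes triglyceride synthesis. Among the members themselves, Fads1 and Fads2 had r = 0.884, Elovl2 and Elovl5 had r = 0.822, and Elovl3 had r = -0.259 with Fads2.

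Enzymes that complete each elongation turn were read next. Of 6 tested partners, Hsd17b12 (3-ketoacyl-CoA reductase), Hacd3 (3-hydroxyacyl-CoA dehydratase) and Tecr (trans-2-enoyl-CoA reductase) were higher in HFD + Inhib than in HFD and 0 were lower. Hsd17b12 ranged from 112 to 142 CPM in HFD, 105 to 143 CPM with siRNA and 207 to 238 CPM with the inhibitor, a rise of 0.87 on the log2 scale over HFD (standard error 0.11, edgeR adjusted p = 4.2e-05). Hacd3 ranged from 137 to 149 CPM in HFD and 202 to 260 CPM with the inhibitor, a rise of 0.75 (standard error 0.083, edgeR adjusted p = 1.2e-05), and Tecr rose by 0.43 (edgeR adjusted p = 0.029). In HFD versus LFD 2 partners were higher, Hacd1 (0.65) and Hacd2 (0.36). The shares of all genes called in these comparisons were 18.2% with the inhibitor and 18.4% in HFD versus LFD. With siRNA against HFD 0 of the 6 passed in edgeR or DESeq2, with 2 at an unadjusted p under 0.05. The median of the 6 was 0.42 with the inhibitor and -0.054 with siRNA, against -0.0044 and 0.022 over all genes.

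The electron carriers of the desaturases come next. Of 6 cytochrome b5 genes and reductases, 2 were called in HFD versus LFD, where 18.4% of all genes passed: Cyb5r4 was higher (0.27, edgeR adjusted p = 0.043) and Cyb5r1 lower (-0.56, edgeR adjusted p = 0.031) in HFD than in LFD. Against HFD, 0 were called by edgeR for either treatment, with 2 at an unadjusted p under 0.05 for siRNA and 1 for the inhibitor, and DESeq2 called 1 and 0. Cyb5a, cytochrome b5 itself, was higher than in LFD with siRNA (0.54, edgeR adjusted p = 0.0066) and with the inhibitor (0.43, edgeR adjusted p = 0.0068). In HFD + Inhib versus LFD, 3 of the 6 were called, 2 higher (Cyb5a and Cyb5r4) and 1 lower (Cyb5r1), where 36.9% of all genes passed.

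**Figure D5:**
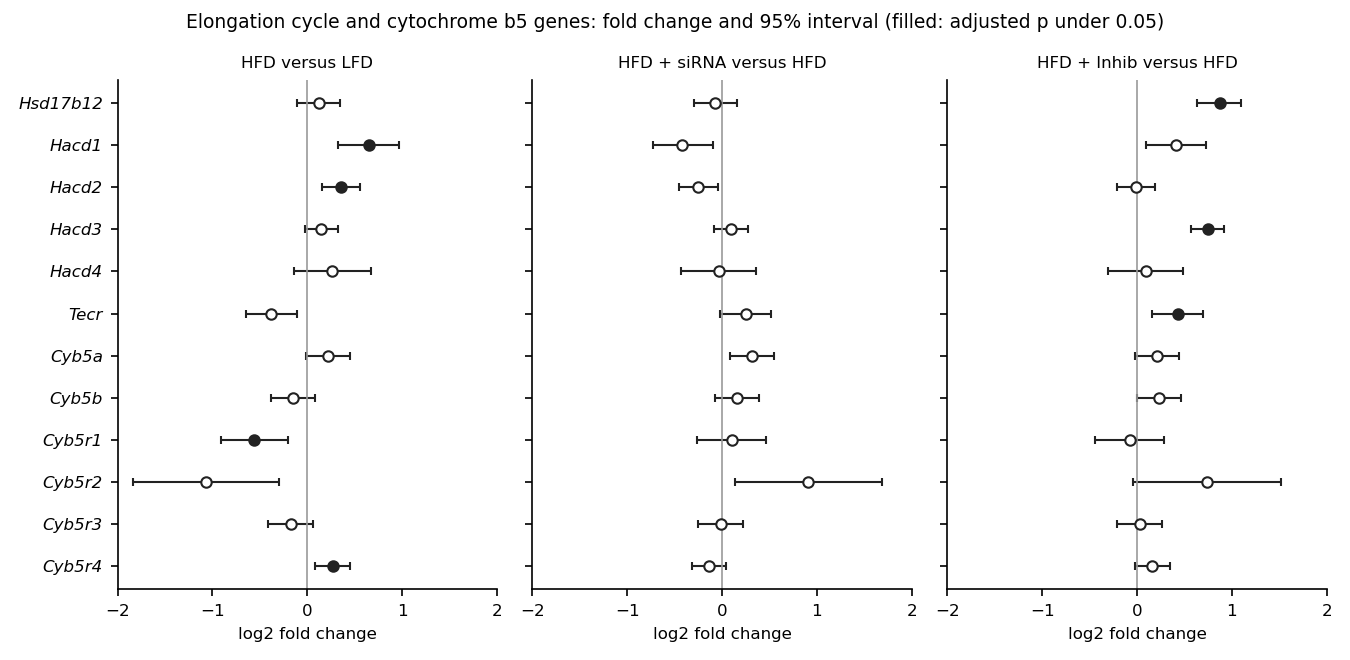
Log2 fold change (points) and 95% interval (bars) of 6 elongation cycle genes and 6 cytochrome b5 genes in 3 comparisons, with filled points where the edgeR adjusted p was under 0.05. Hsd17b12, Hacd3 and Tecr were called with the inhibitor, and no gene was called with siRNA.

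Genes that activate, carry or shorten polyunsaturated fatty acids were next. Of 13 tested, 9 were higher and 0 lower in HFD + Inhib than in HFD, with a median log2 fold change of 0.98. Over all genes, 9.8% were higher and 8.42% lower, with a median of -0.0044. Acaa1b, a peroxisomal thiolase, rose by 2.3 on the log2 scale (edgeR adjusted p = 3.1e-07), and Acsl1, an acyl-CoA ligase, by 1.55 (edgeR adjusted p = 5e-06). Lpcat3, which places polyunsaturated chains in phospholipids, rose by 0.99 (edgeR adjusted p = 8.1e-06). Acsl4, the ligase of arachidonic acid, rose by 0.82 with the inhibitor (edgeR adjusted p = 0.00031) and fell by 0.58 with siRNA (edgeR adjusted p = 0.0097). Mfsd2a, which transports lysophospholipids with docosahexaenoic acid, was the 1 gene of the list called in HFD versus LFD, with a rise of 2.61 (edgeR adjusted p = 1.7e-05), and fell by 0.88 with siRNA (edgeR adjusted p = 0.024).

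Known targets of PPARα, SREBP1 and LXR are set beside the members. Of 18 PPARα targets, 16 were higher with the inhibitor than in HFD and 0 lower, led by Cyp4a10 (5.26), Cyp4a14 (5.13) and Ehhadh (4.65 on the log2 scale). With siRNA, edgeR called 0 higher and Ehhadh lower (-0.65), where 11.7% of all genes were called. DESeq2 called 3 of the targets there, and 5 had an unadjusted p under 0.05. In HFD versus LFD 7 were higher, led by Fgf21 (2.26), Cd36 (1.78) and Vnn1 (1.44), where 9.58% of all genes were higher. Ppara itself was higher in HFD than in LFD by 0.81 (edgeR adjusted p = 0.00076) and gave no call with the inhibitor against HFD (0.29, edgeR adjusted p = 0.12). Of the 15 SREBP1 and LXR targets, 2 were higher and 1 lower in HFD versus LFD, and 4 were higher and 0 lower with the inhibitor, led by Acacb (1.5), Lpcat3 (0.99) and Scd1 (0.95). In HFD versus LFD the share called was near the 18.4% of all genes. With the inhibitor, 18.2% of all genes were called, 9.8% higher and 8.42% lower. Among 11 regulators, edgeR and DESeq2 called 0 with the inhibitor against HFD, with 2 at an unadjusted p under 0.05. In HFD versus LFD, Insig1 (0.52) rose as well, and Scap (-0.71), Mlxipl (-0.62) and Nr1h2 (-0.48) fell.

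Markers of cell types were read beside these results, because in whole liver fewer cells of a type and less RNA per cell cannot be told apart. Hepatocyte markers, 9 of 10 in the table and led by Alb, summed to 77700 to 98200 CPM in LFD, 63200 to 78500 CPM in HFD, 71700 to 83900 CPM with siRNA and 43500 to 46100 CPM with the inhibitor. With the inhibitor 5 of 9 fell and 0 rose against HFD, while 5 members rose. Of 12 macrophage markers 2 fell and 0 rose with the inhibitor, near the 18.2% of all genes called, and their sum was 312 to 391 CPM in HFD and 231 to 340 CPM with the inhibitor. The adipocyte list summed to 16 to 33.4 CPM in HFD and 120 to 207 CPM with the inhibitor, where Fabp4 was the most abundant gene and 2 to 4 of the 8 markers were at 0 in a library. All 4 tested genes of the list were higher with the inhibitor than in HFD, without overlap, with a median log2 fold change of 2.93 (Cfd 3.68, Fabp4 3.3 and Cidec 2.55 among them). Of the markers too low to be tested, Adipoq was at 0.0393 ± 0.0478 CPM, Plin1 at 0.00883 ± 0.0177 CPM and Lep at 0 in all 4 inhibitor libraries (SD, n = 4). The lipid-associated macrophage list summed to 157 to 292 CPM with the inhibitor, most of it Lpl, and 52.2 to 69.5 CPM in HFD. Of its 8 genes 2 rose and 2 fell, with a median log2 fold change of -0.58. Lpl averaged 189 CPM with the inhibitor and 20.9 CPM in HFD. Trem2 averaged 0.25 CPM with the inhibitor and 0.719 CPM in HFD, and Gpnmb 0.345 and 0.847 CPM. The bile duct list summed to 56.5 to 94.6 CPM with the inhibitor, 64% to 84.9% of it Krt23, and 13.1 to 17 CPM in HFD. Of its 7 tested genes 1 rose and 0 fell, where 18.2% of all genes passed. Sox9 averaged 10.7 CPM with the inhibitor and 8.4 CPM in HFD. The part of these shifts in the members' values was not tested.

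Log2 fold changes across genes also followed GC content. Across 8232 genes of higher level, none an independent replicate, the Spearman correlation of log2 fold change and GC content was -0.487 for HFD against LFD. It was 0.458 for siRNA and -0.268 for the inhibitor, both against HFD. For the inhibitor it was -0.503 against siRNA and -0.529 against LFD, and for siRNA against LFD it was -0.0865. Transcripts of Elovl2 (44.4% GC) and Elovl5 (47.9% GC) are poorer in GC than those of Fads1 (53.7%) and Fads2 (52.9%). Values with the correction follow for HFD versus LFD, siRNA versus HFD and inhibitor versus HFD, in that order. Elovl5 was at 0.91, -0.97 and 0.66 (edgeR adjusted p = 0.002, 0.0021 and 0.0091), and Fads2 was at 1.28, 0.03 and 0.76 (edgeR adjusted p = 0.00011, 0.93 and 0.0029). Fads2 and Elovl5 therefore kept each of their calls in these 3 comparisons. As given above, Elovl2 lost its call with siRNA and Elovl3 its call with the inhibitor under the same correction.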

How the data were processed

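For 16 liver libraries, the authors deposited unscaled expected counts for each gene symbol in 1 table. According to the submitters' processing notes, STAR, RSEM and the mouse build mm39 were used. Their versions and the annotation are not given in the sources used here. The study's methods name HTG EdgeSeq, a probe assay, which differs from a table in which 15.1% of the values are not whole. Which assay made the counts is unsettled, so statements on GC content, transcript length and shared words hold only for reads along transcripts.

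Counts were rounded to whole numbers, and genes were kept by filterByExpr (minimum count 10, minimum total 15), which left 18335 of 33142 genes with a count. Library totals ran from 24317111 to 35820234 with TMM factors of 0.929 to 1.09, and the common dispersion was 0.038. All 4 groups entered 1 fit of edgeR's quasi-likelihood test (edgeR 4.0.16, limma 3.58.1, R 4.3.3) with 6 comparisons, each adjusted by Benjamini-Hochberg over all genes tested, at a threshold of 0.05. Standard errors were taken from the F statistic. Log2 CPM had a prior count of 2. With 4 libraries per group, levels are mean ± SD. Each pair of libraries of a group differed by more than counting noise (chi-square per gene 19.4 to 144 over 24 pairs), so all were counted.

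The alternatives were DESeq2 1.42.0, RLE size factors, no filter, at least 10 counts in every library, only the compared groups, a replicate block, a correction for GC content and length (15858 genes, trends with 5 degrees of freedom), both together, an adjusted p under 0.01, and each library left out. On simulated data for HFD versus LFD with 18030 genes, edgeR recovered 100 of 100 genes changed by a log2 fold of 2 and 85 of 100 changed by 1, with 13 false calls, and DESeq2 the same with 27. Every simulated gene had the common dispersion, and only genes of higher mean counts were changed. These figures therefore need not hold for members that spread more, such as Elovl3, with an SD of 72.3% of its mean in HFD.

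The 9 genes, the gene lists and the tests were chosen with earlier results of these data known. Named are the members, Khk, Scd1 and Elovl6, the called genes of each list with the largest changes, at most 3 per direction, and for members called in at least 2 comparisons the 3 genes of most like pattern (the first of them for some). Srebf1, Ppara, Lpcat3, Acsl4, Cyb5a and the marker genes given singly beyond that rule were chosen after their values were seen. GENCODE M21 and RefSeq, both on GRCm38, gave lengths, GC content, shared words and promoters only, since the counts were made on mm39. Results for lymphocyte, stellate cell, endothelial, erythroid and pancreas markers are in the closing section. A gene of the lists that the rule would name is not reported here.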

Additional observations from a re-analysis of the deposited data

Results flagged for a closer look

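Single libraries stood apart from the other 3 of their group in 5 of 44 groups of values, by Dixon's test of the gap over the range, where chance gives about 1 in 20. For Fads1, LFD replicate 1 was highest at 567 CPM, with the others at 377 to 390 CPM, and HFD replicate 1 was lowest at 389 CPM, with the others at 512 to 517 CPM. For Fads2, LFD replicate 1 was highest at 592 CPM (others 304 to 350 CPM), and HFD + Inhib replicate 1 was highest at 1730 CPM (others 1410 to 1420 CPM). For Elovl1, HFD + siRNA replicate 1 was lowest at 34.4 CPM (others 39.4 to 40.4 CPM). LFD replicate 1 was thus far from its group for both neighbouring desaturases, and it was also the highest LFD library for Scd2 at 20.2 CPM and for Scd1 at 16100 CPM. Without it, Fads2 in HFD versus LFD rose to 1.44 on the log2 scale from 1.17. The cause was not tested.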

How the results depend on the processing

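Of 918 values of the members under alternatives, 823 kept their direction and their side of the threshold, 55 lost a call, 17 gained one and 23 changed sign, and 27 of the 54 comparisons of a member were the same throughout. The causes were not tested. Members called fell from 2 to 1 in HFD + siRNA versus LFD with only the compared groups, with the replicate block and at an adjusted p under 0.01, and from 4 to 2 in HFD + siRNA versus HFD with the replicate block plus GC correction and at 0.01. At 0.01 they fell from 5 to 3 in HFD + Inhib versus HFD and from 6 to 3 in HFD + Inhib versus HFD + siRNA. Without 1 library, the members called were 4 to 6 in HFD versus LFD, 2 to 4 in HFD + siRNA versus HFD, 3 to 5 in HFD + Inhib versus HFD, 5 to 7 between the treatments, 1 to 3 in HFD + siRNA versus LFD and 5 to 6 in HFD + Inhib versus LFD, where they were 7 with only the compared groups. Khk in HFD versus LFD (-0.012) changed sign to 0.0053 with at least 10 counts in every library, 0.0038 with the replicate block, 0.19 with the GC correction and 0.21 with both, and ran from -0.12 to 0.15 without 1 library.

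Values near 0 that changed sign, none of them called, were Elovl2 in HFD + Inhib versus HFD (0.0033 with DESeq2 and with RLE, 0.0039 without a filter, -0.086 to 0.053 without 1 library), Fads6 in HFD versus LFD (0.043 with the GC correction, 0.045 with block and correction, -0.12 to 0.0071 without 1 library), Elovl1 in HFD versus LFD (0.0025 and 0.00011 under the same settings) and Elovl1 in HFD + Inhib versus LFD (0.13 under both, -0.09 to 0.09 without 1 library). Without 1 library, Fads6 ran from -0.0076 to 0.14 in HFD + siRNA versus HFD and from -0.047 to 0.099 in HFD + siRNA versus LFD, Elovl5 from -0.093 to 0.016 and Elovl3 from -0.57 to 0.039 in HFD + siRNA versus LFD, and Scd2 from -0.16 to 0.57 in HFD + Inhib versus LFD.

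Over all genes, calls at 0.01 were 1287, 689, 1733, 3711, 566 and 4123, against 3370, 2154, 3339, 6204, 1582 and 6767, in the order HFD versus LFD, siRNA and inhibitor versus HFD, inhibitor versus siRNA, and siRNA and inhibitor versus LFD. Calls in HFD + siRNA versus LFD were 808 with only the compared groups. Without 1 library they were 2001 to 3691 in HFD versus LFD, 1100 to 1981 in HFD + siRNA versus HFD and 965 to 1456 in HFD + siRNA versus LFD. Between deviations of same-numbered libraries, 6 of 24 correlations were over 0.1 (-0.132 to 0.336). They were compared with no reference, so whether the replicate numbers pair the libraries was not tested. With the replicate block Fads1 in HFD + siRNA versus LFD lost its call (adjusted p = 0.057 in edgeR), and no other call of a member changed with the block alone. Scd2 had 188 to 791 counts per library, the fewest of the members except in LFD replicate 1, and whether depth limits its calls was not tested.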

Other observations

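Marker lists of other cells moved as follows with the inhibitor against HFD by edgeR at an adjusted p under 0.05. Of 9 tested lymphocyte markers 4 fell and 0 rose, with summed levels of 3.91 to 10.3 CPM in HFD and 2.31 to 4.03 CPM with the inhibitor. Of 10 stellate cell markers 2 fell and 0 rose, and of 10 endothelial markers 1 rose and 0 fell, where 18.2% of all genes passed. The 1 tested pancreas marker fell by 1.57 on the log2 scale. None of the 6 tested erythroid markers was called.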
